A study of Mus musculus with 6 samples.

Results

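The inhibin, activin and follistatin genes were followed in cultured mouse ovarian granulosa cells, with and without the alkylating chemotherapy drug cyclophosphamide. They are 9 genes, found by symbol among the 54532 genes of the table, and all 9 passed the filter on low values that left 14751 genes for testing. They were chosen by name as members of 1 signalling system, with the expression differences between these same libraries already known, so their changes are described here and nothing is supported with them. The untreated group (3 libraries) and the group given cyclophosphamide for 24 h (3 libraries) were both labelled as wild type and as granulosa cells grown in DMEM/F12 with serum. The treatment label names an intraperitoneal injection, whereas the growth and treatment protocols speak of adherent cultures that received the drug, as a model of premature ovarian failure. The sources used here give no dose, strain or age, and do not say whether the libraries of a group had separate cultures as their origin. The spread between libraries may therefore be technical.

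Inhibins and activins are secreted dimers built from a shared pool of subunits. An alpha subunit (Inha) paired with a beta subunit (Inhba or Inhbb) gives an inhibin, which lowers pituitary secretion of follicle-stimulating hormone, and a pair of beta subunits gives an activin, which raises it. Activin binds a type II receptor (Acvr2a or Acvr2b), which recruits a type I receptor (Acvr1b) that phosphorylates SMAD2 and SMAD3. Inhibin occupies the type II receptors together with betaglycan (Tgfbr3), and the follistatins (Fst and Fstl3) bind activin outside the cell. Granulosa cells are the main ovarian source of the subunits.

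With cyclophosphamide the ligand subunits and both follistatins fell, by very different amounts, while the type II receptors rose. The largest drop was in Inhbb, whose mean was 30.3-fold lower, followed by Fst (6.68-fold), Inhba (6.36-fold), Inha (2.19-fold) and Fstl3 (1.54-fold). Acvr2a stood at 171% and Acvr2b at 235% of their untreated means. The count was 5 members lower, 2 higher and 2 that did not pass (limma on log2(FPKM + 0.1), Benjamini-Hochberg adjusted p under 0.05 over all genes tested). FPKM is a read count scaled by gene length and by library size. Of all genes tested 69.3% passed, 35.9% lower and 33.3% higher. The FPKM of the groups did not overlap for 7 of the 9 members, as for 73.4% of all genes tested. The median log2 fold change was -0.63 over the members and -0.02 over all genes tested. In RNA from whole cultures, fewer cells that express a gene and less RNA of it per cell cannot be told apart.

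**Figure D1:**
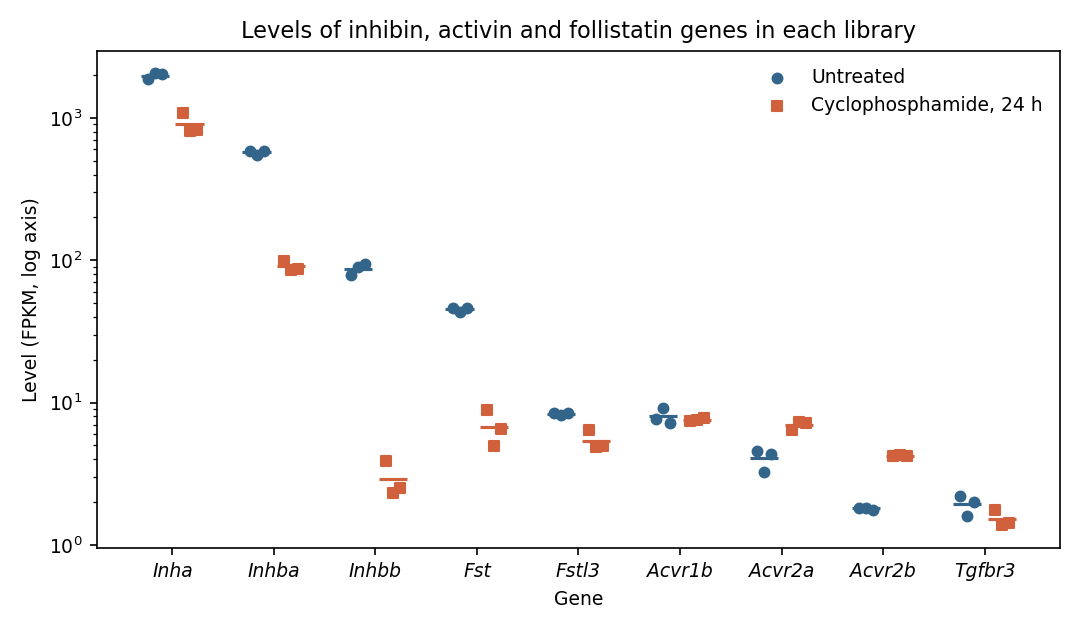
Level of each of the 9 genes in FPKM (log axis) in the 3 untreated libraries (circles) and the 3 cyclophosphamide libraries (squares), with horizontal bars at the group means. Inhbb drops from rank 3 among the 9 genes to rank 8, while Acvr2a and Acvr2b lie higher with cyclophosphamide.

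Libraries held 16458385 to 17607586 reads each. Of the granulosa markers examined, Foxl2, Gata4, Nr5a1, Nr5a2, Esr2, Hsd17b1, Amhr2 and Fshr were measured. Amh had 16 untreated and 22 cyclophosphamide reads in all, and the aromatase gene Cyp19a1 had 3 and 1, so these defining markers were at or near 0. Of the 8 granulosa markers tested 7 were lower and 1 higher, and the summed level of the list went from 415 to 453 FPKM in untreated to 253 to 275 FPKM in cyclophosphamide libraries. Lists of other cell types moved too. The smooth muscle and pericyte list (4 of 5 tested lower, 1 higher) went from 82.5 to 93.4 FPKM down to 12.7 to 23.4 FPKM, mostly through Acta2. The surface epithelium list (4 of 5 lower, 0 higher) went from 106 to 119 FPKM down to 49.8 to 73.1 FPKM, mostly through Krt8 and Krt18. Its other genes Upk3b, Krt19 and Msln had untreated means of 0.644 to 0.889 FPKM. The theca and stroma list (2 of 4 lower, 0 higher) went from 25.4 to 31.1 FPKM down to 7.89 to 9.35 FPKM, mostly through Col1a1 and Col3a1. Dcn had a lower and Pdgfra a higher mean, and neither passed. Cyp17a1 had 1 untreated and 8 cyclophosphamide reads, Insl3 1 and 0, and Lhcgr 35 and 5. The macrophage list (2 of 2 tested higher) went from 3.26 to 3.62 FPKM up to 8.06 to 9.02 FPKM, through Csf1r and Cd68, while Ptprc, Adgre1, C1qa, C1qb and Tyrobp had 3 to 10 untreated and 1 to 7 cyclophosphamide reads each. The oocyte list (1 of 2 higher, Gdf9) went from 0.676 to 0.879 up to 2.35 to 3.87 FPKM. The endothelial list (1 of 3 higher) went from 0.744 to 1.0 up to 2.08 to 2.67 FPKM through Esam, while Tek and Cdh5 did not pass and had lower means. Of the markers used to define these types, Zp2, Zp3 and Rgs5 were at 0 in the untreated libraries and Insl3 in the cyclophosphamide libraries, and none was at 0 in all libraries. The part of these lists in the changes below was not tested.

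Inha encodes the alpha subunit, which is specific to inhibins. It lies on chromosome 1 from 75507077 to 75510366 (ENSMUSG00000032968, GRCm38, as are all coordinates here). Its level was 1875, 2057 and 2019 FPKM in the untreated libraries and 1087, 805 and 823 FPKM in the cyclophosphamide libraries. All 3 cyclophosphamide libraries lay below the untreated ones, and replicate 1 was the highest of them. The log2 fold change was -1.14 ± 0.19 (SE). By FPKM Inha ranked 6, 4 and 6 among all genes of the untreated libraries, and 13, 19 and 17 with cyclophosphamide. It took 0.289% ± 0.013 of all reads without treatment and 0.136% ± 0.020 with it (SD, n = 3).

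Inhba encodes the beta A subunit, found in inhibin A and activin A. It lies on chromosome 13 from 16011851 to 16031621 (ENSMUSG00000041324). Its level was 587, 547 and 589 FPKM in untreated and 98.6, 85.4 and 87.1 FPKM in cyclophosphamide libraries. The groups lay far apart, and within each group the libraries were close. The log2 fold change was -2.67 ± 0.09 (SE), and only 1.50% of genes tested had an equal or lower value. By FPKM its rank in the library went from between 33 and 39 to between 403 and 416. The antisense gene Gm48444, which shares no exon base with Inhba, had 75 to 94 reads per untreated and 16 to 31 per cyclophosphamide library.

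Inhbb encodes the beta B subunit, found in inhibin B and activin B. It lies on chromosome 1 from 119415465 to 119422248, on the minus strand (ENSMUSG00000037035). Its level was 78.5, 88.9 and 94.4 FPKM in untreated and 3.85, 2.29 and 2.50 FPKM in cyclophosphamide libraries. No cyclophosphamide library came near the untreated range, and replicate 1 again kept the highest level of its group. These values rest on 5460 to 6786 reads per untreated library and 175 to 270 per cyclophosphamide library. The log2 fold change was -4.90 ± 0.18 (SE), the sixth lowest of the 14751 genes tested. Among the 9 members Inhbb had rank 3 in every untreated library and rank 8 in every cyclophosphamide library.

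RefSeq holds a promoter sequence for 7 of the 9 members (build GRCm38.p6). The 250 bases before the start are shown where they lie wholly outside the table's gene model, for both beta subunit genes and, for comparison, for Acvr2a, a receptor gene that rose. Capitals mark CpG, a C followed by G. The windows are chr13:16011601-16011850 on the plus strand for Inhba, chr1:119422249-119422498 on the minus strand for Inhbb and chr2:48813859-48814108 on the plus strand for Acvr2a.
Inhba: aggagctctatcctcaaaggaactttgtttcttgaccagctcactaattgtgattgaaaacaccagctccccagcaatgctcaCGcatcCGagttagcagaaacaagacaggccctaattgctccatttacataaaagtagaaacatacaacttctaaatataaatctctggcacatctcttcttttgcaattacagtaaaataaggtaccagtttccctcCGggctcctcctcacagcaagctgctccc
Inhbb: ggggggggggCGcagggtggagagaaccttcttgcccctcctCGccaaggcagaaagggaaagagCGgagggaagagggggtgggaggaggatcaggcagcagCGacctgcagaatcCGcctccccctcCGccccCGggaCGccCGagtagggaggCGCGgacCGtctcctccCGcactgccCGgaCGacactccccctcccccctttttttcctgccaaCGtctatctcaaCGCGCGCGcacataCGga
Acvr2a: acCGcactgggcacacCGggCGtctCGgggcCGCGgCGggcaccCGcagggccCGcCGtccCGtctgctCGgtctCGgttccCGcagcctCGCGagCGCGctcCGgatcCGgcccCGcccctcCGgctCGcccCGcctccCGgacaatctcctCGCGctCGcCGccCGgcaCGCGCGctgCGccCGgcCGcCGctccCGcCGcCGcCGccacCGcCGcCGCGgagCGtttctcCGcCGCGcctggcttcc

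The 3 windows differ in base composition. The Inhba window is 43.2% G or C with 3 CpG, the Inhbb window 68.0% with 21 and the Acvr2a window 82.0% with 49, against medians of 52.4% and 6 over 32851 RefSeq promoters. Fewer CpG than in the Inhba window were found in 29.0% of those promoters, and the share was 83.7% for Inhbb and 99.9% for Acvr2a. The beta subunit genes, which both fell, thus lie on either side of the median, and the Acvr2a window is above it with the Inhbb window. Short motifs were searched on both strands. TATAAA occurred in the Inhba window from base -91 to base -86, counted back from the start, and 12.4% of all promoters hold it. CAGAC, a SMAD-binding sequence, occurred in the Acvr2a window from -188 to -184, on the opposite strand, and 42.2% of all promoters hold it. CAGAC also occurred in the RefSeq windows of Inha, Fstl3 and Acvr2b and TATAAA in that of Fstl3, none of which is printed. The windows of Fstl3 and Acvr2b reach into the table's gene models. The Inha window (75507359 to 75507608) lies wholly inside the Inha gene model, so its match is not upstream of that model. Of these genes Inha and Fstl3 fell and Acvr2b rose. The cAMP response element TGACGTCA (in 1.55% of promoters) and its half-site TGACG (17.8%), which it contains, were in none of the 3 windows. Nor were the AP-1 site TGAGTCA (4.46%), the NR5A site AAGGTCA (4.08%) and its longer form CAAGGTCA (1.33%), the GATA site AGATAA (9.99%), the ATF4 sequence TGATGNAA (3.45%) and the NRF2 sequence TGACNNNGC (10.2%).

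The unequal drops changed the proportions of the subunits. The ratio of Inha to Inhba was 3.19, 3.76 and 3.43 in untreated and 11.03, 9.43 and 9.44 in cyclophosphamide libraries. The groups did not overlap, and the mean log2 ratio was higher by 1.53 ± 0.10 (SE). The ratio of Inha to Inhbb was 23.9, 23.1 and 21.4 in untreated and 282, 351 and 329 in cyclophosphamide libraries, a log2 difference of 3.81 ± 0.10. This was the largest shift of the 7 ratios examined. The ratio of Inhba to Inhbb was 7.48, 6.15 and 6.24 in untreated and 25.6, 37.2 and 34.8 in cyclophosphamide libraries, a log2 difference of 2.28 ± 0.19. Among beta subunit transcripts the balance thus lay further toward beta A with cyclophosphamide.

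Of the summed FPKM of the 3 subunits, Inha made up 75.0% ± 1.30 without treatment and 90.6% ± 0.70 with it (SD, n = 3). Inhba made up 21.7% ± 1.39 and 9.13% ± 0.73, and Inhbb 3.30% ± 0.20 and 0.285% ± 0.035. The sum itself was 2645 ± 90.7 FPKM without treatment and 998 ± 166 FPKM with it. The ratio of Inha to both beta subunits together was 2.82, 3.23 and 2.95 in untreated and 10.6, 9.19 and 9.18 in cyclophosphamide libraries. These are proportions of RNA, and no library measured the proteins or the dimers. They also rest on the 1 length per gene used for FPKM, 1475 bases for Inha and 6390 for Inhba. By reads alone Inhba lay above Inha without treatment, at 0.362% ± 0.014 of all reads. With cyclophosphamide Inhba lay below Inha, at 0.0588% ± 0.0030.

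**Figure D2:**
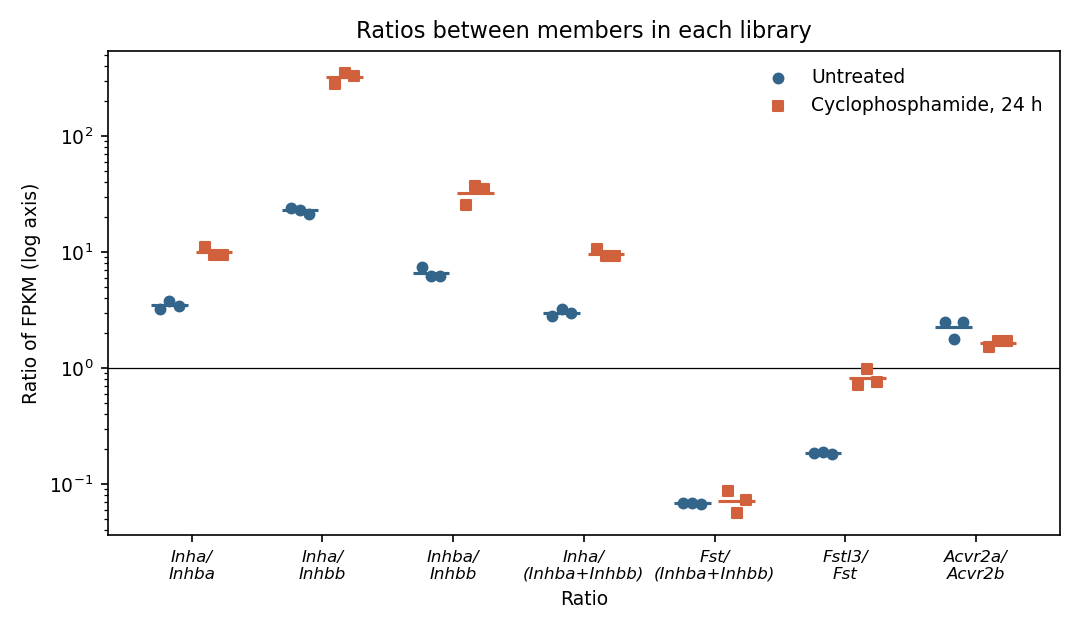
Ratios of FPKM between members in each library (log axis, line at 1), untreated as circles and cyclophosphamide as squares, with bars at the group means. Of the 7 ratios only that of Fst to both beta subunits overlaps between the groups, at 0.0684 against 0.0718 on average.

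Fst encodes follistatin, which binds activin nearly irreversibly. It lies on chromosome 13 from 114452290 to 114458951, on the minus strand (ENSMUSG00000021765). Its level was 46.0, 43.4 and 46.3 FPKM in untreated and 8.87, 4.94 and 6.51 FPKM in cyclophosphamide libraries. The untreated libraries were tight, with a coefficient of variation of 3.55%, and the cyclophosphamide libraries wider, at 29.2%, with replicate 1 highest. The log2 fold change was -2.76 ± 0.18 (SE). The table has 1 value per gene, so the 6 annotated transcripts of Fst, which include its long and short forms, are not separated.

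Follistatin binds the dimers of both beta subunits, so Fst was also set against their sum, most of which is Inhba. The ratio of Fst to the summed beta subunits was 0.0691, 0.0682 and 0.0678 in untreated and 0.0866, 0.0563 and 0.0726 in cyclophosphamide libraries. The groups overlapped, with a log2 difference of 0.05 ± 0.18 (SE), and it was -0.10 without cyclophosphamide replicate 1, 0.21 without replicate 2 and 0.20 with a pseudocount of 1 FPKM. A difference in either direction within that error was not detectable.

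Fstl3, a second activin-binding protein of the follistatin family, lies on chromosome 10 from 79777272 to 79782630 (ENSMUSG00000020325). Its level was 8.43, 8.20 and 8.42 FPKM in untreated and 6.38, 4.86 and 4.97 FPKM in cyclophosphamide libraries. The groups did not overlap, and the log2 fold change was -0.63 ± 0.11 (SE). Fstl3 thus fell less than Fst, and the ratio of Fstl3 to Fst went from 0.183, 0.189 and 0.182 to 0.720, 0.985 and 0.764. Of the 2445 exon bases of Fstl3, 1157 also belong to Prss57 on the other strand, which had 0 to 3 reads per library. The strand setting of the counting is not given, so reads in that stretch are uncertain.

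Replicate 1 of the cyclophosphamide group kept the highest level of its group in all 5 members that fell. Over the 5300 genes that fell in all, this library was the highest of the 3 in 44.4%. Without it the log2 fold changes were -1.28 for Inha, -2.73 for Inhba, -5.12 for Inhbb, -2.97 for Fst and -0.75 for Fstl3. Each was thus further from 0 without that library, and all 5 still passed.

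Acvr2a and Acvr2b encode the type II receptors that bind activin first. Acvr2a lies on chromosome 2 from 48814109 to 48903269 (ENSMUSG00000052155). Its level was 4.58, 3.25 and 4.38 FPKM in untreated and 6.42, 7.27 and 7.22 FPKM in cyclophosphamide libraries, a log2 fold change of 0.77 ± 0.14 (SE). The groups did not overlap, and untreated replicate 2 was the lowest library. Orc4, a gene of the DNA replication origin complex on the other strand, shares 446 of the 5686 exon bases of Acvr2a. It had 703 to 757 reads in untreated and 1028 to 1156 in cyclophosphamide libraries, and its part in the value of Acvr2a was not tested.

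Acvr2b lies on chromosome 9 from 119402118 to 119434995 (ENSMUSG00000061393). Its level was 1.82, 1.82 and 1.76 FPKM in untreated and 4.24, 4.28 and 4.19 FPKM in cyclophosphamide libraries. Within each group the libraries were nearly equal, and the log2 fold change was 1.19 ± 0.10 (SE). The counts behind it were 117 to 125 reads per untreated and 274 to 301 per cyclophosphamide library. The ratio of Acvr2a to Acvr2b was 2.52, 1.79 and 2.49 in untreated and 1.52, 1.70 and 1.72 in cyclophosphamide libraries. That ratio separated by a small margin, with untreated replicate 2 close to the cyclophosphamide libraries. Together the 2 genes went from 5.88 ± 0.70 to 11.2 ± 0.48 FPKM (SD, n = 3).

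Acvr1b, the type I receptor of activin (ALK4), lies on chromosome 15 from 101174067 to 101213684 (ENSMUSG00000000532). Its level was 7.71, 9.16 and 7.16 FPKM in untreated and 7.38, 7.56 and 7.74 FPKM in cyclophosphamide libraries. The cyclophosphamide values lay within the untreated range, and the log2 fold change was -0.07 ± 0.10 (SE). It was 0.02 without untreated replicate 2 and also under upper-quartile scaling of all libraries, so its sign was not settled.

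Tgfbr3 encodes betaglycan, the co-receptor through which inhibin opposes activin. It lies on chromosome 5 from 107106570 to 107289629, on the minus strand (ENSMUSG00000029287). Its level was 2.21, 1.58 and 2.01 FPKM in untreated and 1.75, 1.37 and 1.43 FPKM in cyclophosphamide libraries. The groups overlapped, and the log2 fold change was -0.32 ± 0.17 (SE), which did not pass. It was read 161 to 236 times per library. Tgfbr3 spans 183 kb, and tested protein-coding genes spanning 129 kb or more (1271 genes) had a median log2 fold change of -0.84. For the other members the median of genes of like span lay between -0.13 and 0.07.

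The order of the 9 genes by FPKM differed between the groups. Inha and Inhba came first and second in every library. In untreated libraries Inhbb and Fst followed, and Fstl3 and Acvr1b overlapped with each other, as did Acvr2b and Tgfbr3 at the bottom. In cyclophosphamide libraries Acvr1b, Acvr2a, Fst and Fstl3 lay between 4.86 and 8.87 FPKM, with Fst overlapping the other 3 genes. Below them came Acvr2b, then Inhbb, then Tgfbr3, whose ranges did not overlap. Acvr2b, which had lain far below Inhbb, exceeded it in each of these libraries.

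**Figure D3:**
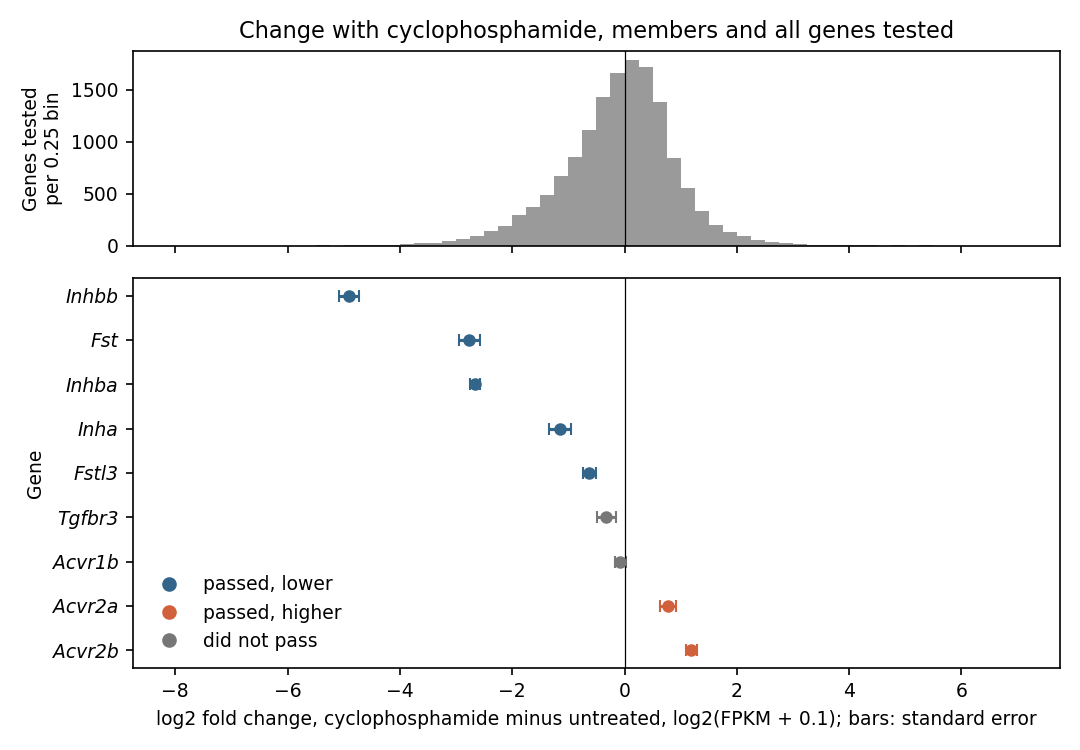
Upper part, number of tested genes by log2 fold change (cyclophosphamide minus untreated, on the log2(FPKM + 0.1) scale, bins of 0.25), and lower part, the value of each member with its standard error, coloured by whether it passed the threshold. Inhbb lies in the far lower tail at -4.90 and Acvr2b at 1.19.

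Genes whose 6 values most resembled those of a member were found by distance, as the root mean square difference of log2(FPKM + 0.1) after each gene was set relative to its own untreated mean, among 10481 protein-coding genes. Nearest to Inha were Serpinh1, a collagen chaperone gene (distance 0.03), Cib2 (0.04) and the keratin gene Krt8 (0.045). Nearest to Inhba were the mitotic kinesin gene Kif2c (0.053), Nedd9 (0.058) and Nacad (0.063). Inhbb had more distant neighbours, namely Cyp26b1, which degrades retinoic acid (0.112), Akap5 (0.132) and the protease gene Prss23 (0.141). Nearest to Fst were Lrrn1 (0.064), Kcnab1 (0.094) and Akap12 (0.105). With 2 groups of 3 libraries, this likeness mostly reflects the size of the difference between the groups.

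Other genes of the pathway were taken from 6 lists with 59 distinct tested genes, of which 20 rose, 23 fell and 16 did not pass. These are read against the background of 33.3% higher and 35.9% lower over all genes. In this and the next paragraphs errors of FPKM are SD (n = 3) and errors of log2 fold changes are SE. Among other ligands of the same receptors 2 of 9 were tested. Gdf11, a ligand related to myostatin, fell from 10.2 ± 1.31 to 1.54 ± 0.110 FPKM, and its log2 fold change was -2.65 ± 0.12 (limma, adjusted p = 1.6e-06). Lefty1 did not pass. The remaining beta subunit genes were barely read. Summed over the libraries of each group, Inhbc had 0 untreated and 1 cyclophosphamide reads, and Inhbe had 7 and 2.

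Of 8 tested convertases, which cut the precursors of these ligands, and follistatin-domain binders, 3 rose and 4 fell (median log2 fold change -0.15). Fstl1, a secreted glycoprotein of the follistatin family, fell from 154 ± 2.77 to 39.2 ± 5.68 FPKM (log2 fold change -1.98 ± 0.10, limma, adjusted p = 2.3e-06). Its relative Fstl4 fell as well (-1.60 ± 0.29, limma, adjusted p = 0.0013). Wfikkn1, an extracellular binder of myostatin and Gdf11, rose by 1.66 ± 0.51 (limma, adjusted p = 0.02) on 3 to 50 reads per library. That call was lost without a filter (1.66), without untreated replicate 3 (1.22) and without cyclophosphamide replicate 1 (1.41) or 3 (1.4).

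Of 8 other receptors and co-receptors tested 0 rose and 3 fell (median -0.10). Bmpr2, a type II receptor for bone morphogenetic proteins, fell from 32.1 ± 2.28 to 18.5 ± 0.664 FPKM (log2 fold change -0.79 ± 0.07, limma, adjusted p = 3.1e-05). Synj2bp encodes a protein that binds activin receptors inside the cell, and its value was -0.60 ± 0.15 (limma, adjusted p = 0.0083). Magi2 encodes another such protein, with a value of -0.55 ± 0.17 (limma, adjusted p = 0.022). The call of Magi2 was lost without a filter (-0.55), without untreated replicate 1 (-0.44) or 3 (-0.56) and without cyclophosphamide replicate 1 (-0.51). The type I receptor genes Acvr1 (0.09 ± 0.07) and Acvr1c (-0.30 ± 0.24, 7 to 26 reads per library) did not pass.

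In the intracellular part of the pathway most genes were higher. Most genes listed for it are brakes on the signal, and most tested genes rose both among the brakes and among the others. Of 16 tested genes of SMAD2/3 transduction and its brakes 13 rose and 0 fell, with a median log2 fold change of 0.64. Smad3, which activin receptors phosphorylate, rose from 12.1 ± 0.208 to 17.9 ± 1.78 FPKM (log2 fold change 0.55 ± 0.08, limma, adjusted p = 0.00045). Smad4, the shared partner of the receptor SMADs, rose from 36.2 ± 1.66 to 60.4 ± 3.76 FPKM (0.74 ± 0.07, limma, adjusted p = 4.2e-05). Smad2 had a value of 0.15 ± 0.09 and did not pass. The largest rise of the list was in Tgif1, a repressor of SMAD2/3 transcription, from 9.96 ± 0.692 to 33.9 ± 1.69 FPKM (1.76 ± 0.07, limma, adjusted p = 1.1e-06). Besides Tgif1, the brakes that rose included the inhibitory SMAD gene Smad7 (0.75 ± 0.08, limma, adjusted p = 7.7e-05) and the ubiquitin ligase gene Smurf1 (0.86 ± 0.07, limma, adjusted p = 2.3e-05). The others were Smurf2, Nedd4l, Wwp1, Ppm1a, Ski and Skil. Of the genes that are not brakes, Smad3, Smad4, Zfyve9 and Usp15 rose. Trim33 and Tgif2 also did not pass.

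Known response genes of SMAD2/3 were mixed, with 3 of 11 tested higher and 6 lower (median -0.54). Ctgf, a matricellular protein gene, fell from 193 ± 16.3 to 3.35 ± 1.45 FPKM (-5.88 ± 0.24, limma, adjusted p = 1e-06). Tgfb1i1, a focal adhesion protein gene, fell less (-1.38 ± 0.09, limma, adjusted p = 6.7e-06). Those that rose were Smad7 and Skil, which also belong to the transduction list, and Junb, an AP-1 subunit gene (0.96 ± 0.10, limma, adjusted p = 6.1e-05).

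Among 17 genes listed as regulators of inhibin subunit promoters 4 rose and 9 fell (median -0.36). The list includes the signalling genes Fshr, Prkaca and Prkar2b, which do not bind promoters. Of these Fshr and Prkaca fell, and Prkar2b did not pass. Esr2, the oestrogen receptor beta gene, fell from 24.2 ± 1.08 to 2.98 ± 0.519 FPKM (log2 fold change -2.99 ± 0.13, limma, adjusted p = 1.2e-06). Foxo1, a forkhead factor, also fell (-2.11 ± 0.10, limma, adjusted p = 1.5e-06). Nr5a2, an orphan nuclear receptor, fell from 29.7 ± 1.30 to 8.93 ± 0.551 FPKM (-1.72 ± 0.07, limma, adjusted p = 1e-06). The genes that rose were the AP-1 subunit genes Jun (1.35 ± 0.16, limma, adjusted p = 0.00016) and Junb, given above, the cAMP response factor gene Creb1 (0.63 ± 0.08, limma, adjusted p = 0.00027) and Nr5a1. Nr5a1, a nuclear receptor that acts on the Inha promoter, rose by 0.33 ± 0.08 (limma, adjusted p = 0.0052). Fshr, the receptor of follicle-stimulating hormone, had 83 to 99 reads per untreated and 25 to 55 per cyclophosphamide library, with a value of -1.17 ± 0.24 (limma, adjusted p = 0.0029).

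**Figure D4:**
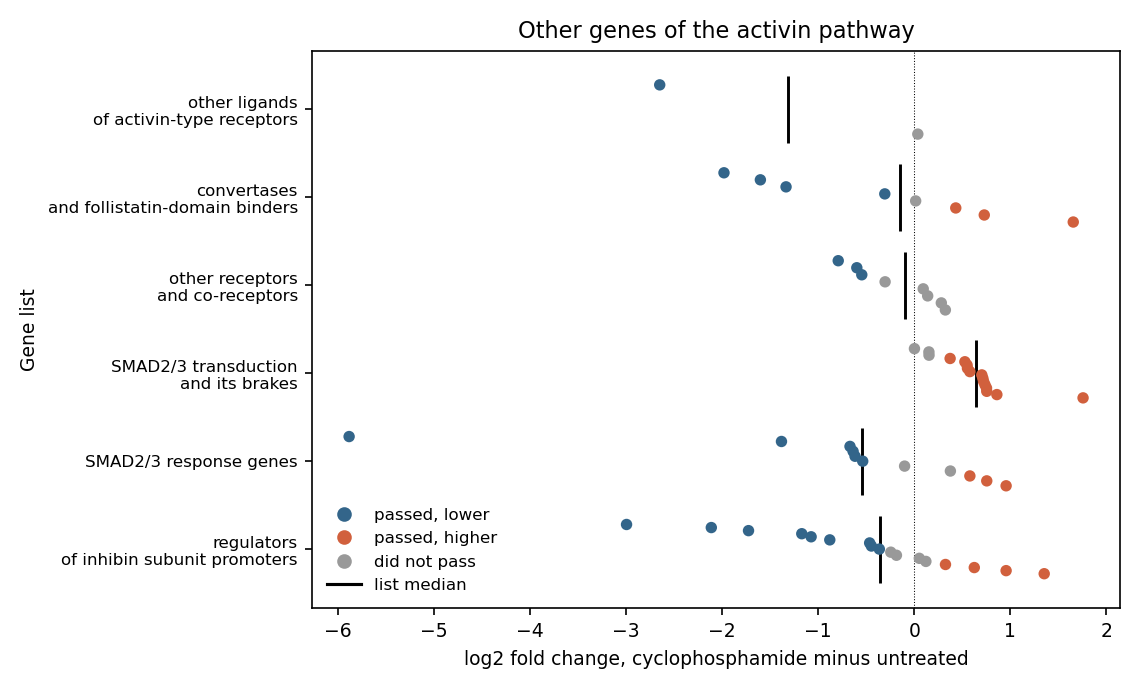
Log2 fold change (cyclophosphamide minus untreated) of each tested gene in 6 lists of the activin pathway, 1 point per gene, coloured by whether it passed the threshold, with the list median as a vertical line. The list of SMAD2/3 transduction and its brakes has its median at 0.64 and no gene that fell, while the other lists hold genes on both sides of 0.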

How the data were processed

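Polyadenylated RNA was sequenced from 3 untreated and 3 cyclophosphamide libraries, grouped by their titles. The authors used HISAT2 (2.0.5) and CASAVA, with GRCm39 as the build, per the submitters' processing notes. No source used here gives the counting tool, strand setting or annotation. The deposited values, named as raw counts, are FPKM made by the authors. Multiplied by gene length, 100% of them were whole multiples of 1 step per library (tolerance 0.01 reads), which gave the reads quoted. The library size implied by that step was not exactly the sum of these reads. It was 0.975 to 0.993 of the sum in untreated and 0.987 to 1.04 of it in cyclophosphamide libraries. Of 54495 gene IDs shared with GENCODE M21 (GRCm38), 98.3% had equal coordinates, so coordinates are read as GRCm38.

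The filter asked for the CPM of 10 reads in 3 libraries and for 15 reads in all, and left 14751 genes. These were compared two-sided by limma 3.58.1 (R 4.3.3) with a trended variance prior, as log2(FPKM + 0.1), at a Benjamini-Hochberg adjusted p under 0.05. This scale understates changes of low genes. The fit was tested on simulated data in which far fewer genes changed than passed here. That run does not measure the accuracy of the fit on these data. Ratios are of FPKM without a pseudocount and carry no test. Replicates per group were 3, and p-values measure only the spread between these libraries. The members, lists, ratios and motifs were chosen with earlier results of these data known. Named were all members, a fixed set of 10 pathway genes, the 3 largest called changes per list, the 3 nearest genes to each of 4 members, and the few genes that a short count left over, chosen after their values were seen. Sequences are from RefSeq. Alternatives covered the pseudocount, filter, scaling, limma-voom on the recovered reads, a replicate block and leaving out each library.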

Additional observations from a re-analysis of the deposited data

How the results depend on the processing

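The 5 members lower and 2 higher were the counts under each of the 14 alternatives, and no member changed its call. Over all genes the count was 4919 higher and 5300 lower, and 5529 and 4781 under upper-quartile scaling. With the replicate number as a block (replicate block), 4767 genes were higher and 5143 lower, with 5 members lower and 2 higher, and none of the 32 named genes recomputed changed its call. In the convertase and follistatin-domain list 2 genes were then higher and 3 lower, in place of 3 and 4, and 5 response genes were lower in place of 6. Same-numbered libraries of the 2 groups did not deviate together (correlations -0.079, 0.009 and -0.029), so the numbers were not read as pairs. Over the alternatives the log2 fold change lay between -5.12 and -4.52 for Inhbb, between -2.97 and -2.56 for Fst, between -1.28 and -1.05 for Inha and between 0.90 and 1.28 for Acvr2b. Of 446 log2 fold changes of 32 named genes recomputed in this way 8 lost their call (Magi2 and Wfikkn1), 3 gained one (Acvr1 and Smad2) and 0 called values reversed. With a pseudocount of 1 FPKM the log2 difference was 3.38 for Inha to Inhbb and 1.87 for Inhba to Inhbb. Without a filter 1 gene of the convertase and follistatin-domain list was higher in place of 3, and 1 to 2 when single libraries were left out. The response genes that were lower numbered 4 without a filter, in place of 6, and 4 to 6 when single libraries were left out. Under upper-quartile scaling 1 gene of the list of other receptors was higher in place of 0, and 0 to 1 when single libraries were left out. The cause of these shifts was not tested.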
